A study of Mus musculus with 5 samples.

Results

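The AP-1 transcription factors were examined at the transcript level in *Olfr151*-transcribing olfactory sensory neurons (OSNs), at rest and after 5 h of odorant. The family was taken as 9 genes of the 55411 in the count tables, listed by symbol, with earlier results of these data known. They were the Jun type (*Jun*, *Junb*, *Jund*), the Fos type (*Fos*, *Fosb*, *Fosl1*, *Fosl2*) and the partner genes *Atf3* and *Batf*. All mice were homozygous for the Olfr151tm26Mom allele (*Olfr151* GFP/GFP), in which every neuron that chooses *Olfr151* also makes a tau-GFP reporter from the same transcript. They were 7 weeks old and male. The exposed group received acetophenone, an agonist of the Olfr151 receptor, at 5% in DMSO, and the control group DMSO alone. GFP-positive cells of 4 mice formed 1 pool, and control pools 1, 2 and 3 and exposed pools 1 and 3 were analysed. Each pool held 200 sorted cells by 1 field of the labels and by the methods, whereas another field gives a larger number. Cells were dissociated with papain and sorted before lysis in both groups, so the resting values describe neurons that had been through that procedure. All transcripts are given per pool below, in the order control pools 1, 2 and 3, then exposed pools 1 and 3.

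AP-1 is a dimer of basic leucine zipper (bZIP) proteins. Jun proteins can pair with one another, while Fos proteins need a Jun partner, and *Atf3* and *Batf* code for further proteins that pair with Jun. The dimers bind DNA at the AP-1 site TGANTCA or at the related cyclic AMP response element TGACGTCA, and the make-up of the dimer affects how strongly it activates. In neurons, *Fos*, *Fosb*, *Junb* and *Atf3* belong to the immediate early genes, which are transcribed within minutes of calcium influx through MAP kinases, Srf and Creb, and *Fos* is widely used as a mark of recent neuronal activity. *Jund* is known for steady expression in resting cells.

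What the 9 genes share is the bZIP domain. The following 27 coding bases of each gene (GRCm38, GENCODE M21) lie in the basic region, the part of the domain that touches DNA. They are shown because they let the members be compared directly, and capitals mark the 11 bases that are the same in all 9 genes.
Jun: AAccgcaTtGCcGCctccAAgtGccGg
Junb: AAcaggcTgGCgGCcaccAAgtGccGg
Jund: AAccgcaTcGCcGCctccAAatGccGc
Fos: AAtaagaTgGCtGCagccAAgtGccGg
Fosb: AAcaagcTgGCtGCagctAAgtGcaGg
Fosl1: AAcaagcTaGCaGCtgctAAgtGcaGa
Fosl2: AAcaagcTaGCtGCagccAAgtGtcGg
Atf3: AAtaaaaTtGCtGCtgccAAgtGtcGa
Batf: AAtcgcaTcGCtGCccagAAgaGccGa
Over these bases *Jund* matched *Jun* at 24 positions and *Junb* matched *Jun* at 21, while *Fosb* and *Fosl2* each matched *Fos* at 23 and *Fosl1* at 19. The members that were most unlike *Fos* were *Jund* and *Batf*, each with 17 matches.

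The libraries held between 42780403 and 49527380 counts, of which spike-in RNAs took 0.249 to 0.631%. The files give whole-number counts of reads on the exons of each gene, and CPM (counts relative to the library total, scaled by edgeR's TMM factors) and TPM (transcripts scaled by exon length and by the library's sum) were computed from them. The sorted gene itself was high throughout, with *Olfr151* at 139703, 150234 and 166294 counts in control and 103864 and 97297 counts in exposed pools. The reporter had 13764, 13847 and 17217 counts against 10375 and 12860. For both, the exposed pools lay below all control pools. The 10 markers of mature OSNs, *Omp* and *Stoml3* at the highest levels among them, summed to 60608, 64950 and 61531 CPM in control and 51830 and 52768 CPM in exposed pools. Of 10024 genes tested, 344 (3.43%) were called higher and 186 (1.86%) lower in exposed pools, at a Benjamini-Hochberg adjusted p under 0.1 in edgeR's quasi-likelihood test and with a log2 fold change beyond 0.5 in either direction. Over all these genes the median was -0.03, and it was -0.23 when the libraries were scaled by the spike-in RNAs. Of the 10 mature OSN markers, 4 (*Cnga2*, *Cnga4*, *Cngb1*, *Rtp1*) were called lower, beside 1.86% of all genes tested. The log2 fold change was negative for 9 of the 10. Both exposed pools lay below all control pools in 5 of them, *Omp* included, and in 19.6% of all genes tested. Detection limits cover counting error only, while the p-values and intervals of the fit measure the spread between these pools. A higher or lower level in a pool can come from more or fewer cells with the transcript or from more or less RNA per cell, which cannot be told apart.

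At rest, in the DMSO pools, the AP-1 transcripts were mostly *Jun* and *Fos*. *Jun* was at 521 ± 97.4 TPM (SD, n = 3) and *Fos* at 409.9 ± 59.4 TPM, and the ranges of these neighbours overlapped. *Jund* (123 ± 72.8 TPM), *Junb* (107 ± 36.5 TPM) and *Atf3* (53.3 ± 24.2 TPM) followed, and in this order *Jund* overlapped with *Junb* and *Junb* with *Atf3*. *Fosb* was clearly lower, at 14.9 ± 7.14 TPM. *Fosl1* (0.441 ± 0.560 TPM) and *Fosl2* (0.381 ± 0.129 TPM) were lower still, though *Fosl2* was above the limit of 3 counts in every control pool, and *Batf* had 0 counts in the 3 control pools. 7 of the 9 members had more than 3 counts in every library.

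After exposure the order was different. *Fos* came first, at 679 ± 197 TPM (SD, n = 2), above both exposed values of *Jun* (322 ± 8.73 TPM) and *Junb* (303 ± 58.8 TPM), which overlapped. *Atf3* (52.2 ± 43.8 TPM) and *Fosb* (38.6 ± 9.05 TPM) overlapped too. *Jund*, next after *Fos* at rest, was at 9.93 ± 8.23 TPM, in the range of *Fosl1* (7.67 ± 0.971 TPM). *Batf* (3.33 ± 2.27 TPM) and *Fosl2* (2.67 ± 0.504 TPM) were the lowest. The plot of each member by pool shows these levels on the CPM scale.

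**Figure D1:**
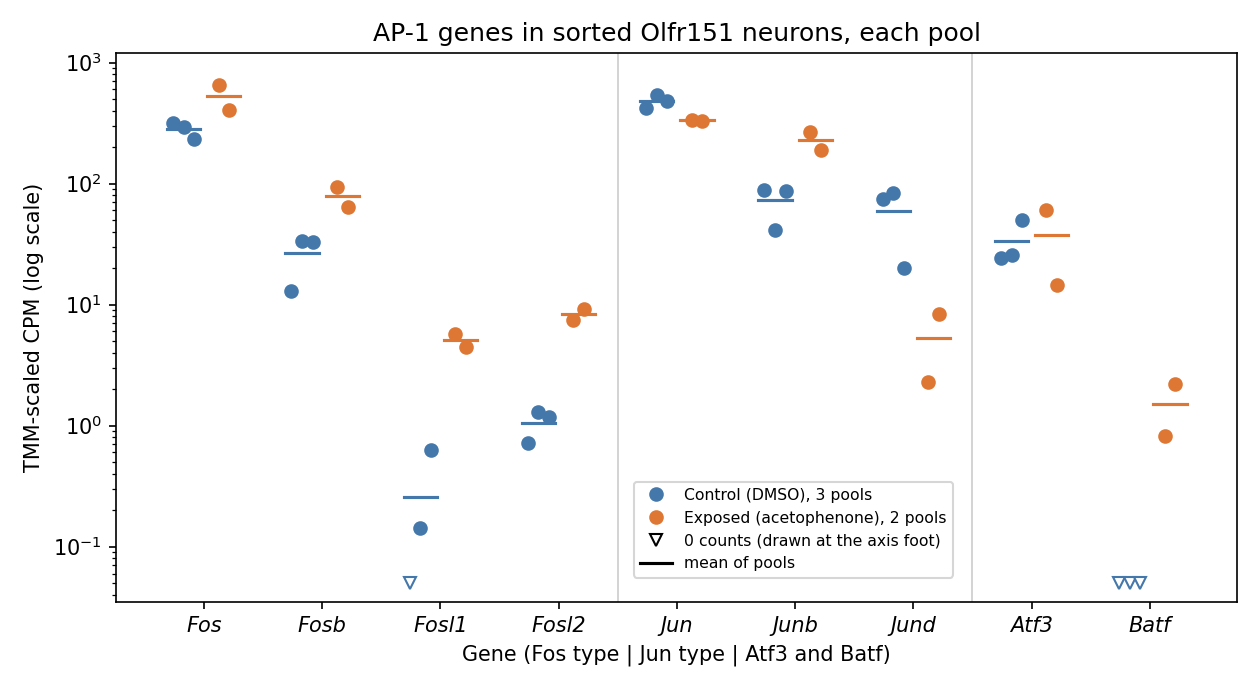
Level of each AP-1 gene in every pool, in TMM-scaled CPM on a log axis, with control pools in blue, exposed pools in orange, bars at the mean and open triangles for pools with 0 counts. Exposed pools lie above all control pools for *Fos*, *Fosb*, *Fosl1*, *Fosl2*, *Junb* and *Batf*, below them for *Jun* and *Jund*, and overlap with them for *Atf3*.

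Of the 9 members, 8 had enough counts to be tested and *Batf* had not. *Fosl2* and *Junb* were called higher after exposure, 2 of 8 against a background of 3.43% of all genes tested, and no member was called lower by edgeR's quasi-likelihood test, where 2 members (*Jun* and *Jund*) were lower at an unadjusted p under 0.05 and DESeq2's Wald test called *Jund*. An unadjusted p under 0.05 was reached by 7 of the 8, and by 19.2% of all genes tested. In 5 of the 8 both exposed pools lay above all control pools and in 2 both lay below, while 20.3% and 19.6% of all genes tested were separated in these directions. The median log2 fold change of the 8 was 1.24. *Fosl1* and *Fosl2* passed the count threshold only through their exposed pools and *Jund* only through its control pools. Such members were below the threshold in at least 1 pool of the other group, so the filter favours members that differ. These counts and the median thus describe the 8 genes tested and are not support for a change of the whole family. In the DESeq2 fit 5 members were called, *Fos*, *Fosb*, *Fosl2* and *Junb* higher and *Jund* lower, where 6.71% of all genes were called higher and 7.13% lower.

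Within the Jun type, *Junb* rose. This gene (ENSMUSG00000052837, chromosome 8, 84974484 to 84978718, minus strand) codes for a Jun protein that is induced by activity and activates less strongly than Jun at many sites. It had 3871, 2043 and 4043 counts in control and 11428 and 7959 counts in exposed pools, or 125, 65.3 and 132 TPM against 344 and 261 TPM. Both exposed pools stood well above every control pool, of which pool 2 was the lowest. Its mean went from 72.6 ± 27.1 CPM (n = 3) to 228 ± 53.8 CPM (n = 2), 3.15-fold, with a log2 fold change of 1.65 (standard error, SE, 0.35, 95% interval 0.80 to 2.50, edgeR adjusted p = 0.0718). The call was lost without control pool 1 (adjusted p = 0.130), exposed pool 1 (0.379) or exposed pool 3 (0.155), under scaling by the spike-in RNAs (0.698) and with the looser filterByExpr count filter (0.149), with log2 fold changes between 1.38 and 1.85.

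*Jun* itself (ENSMUSG00000052684, chromosome 4, 95049034 to 95052222, minus strand), the main Jun-type transcript at rest, did not pass the test. Its levels were 423, 618 and 523 TPM in control and 315 and 328 TPM in exposed pools. The exposed pools were close to each other and below all 3 control pools. The mean was 481 ± 61.9 CPM in control and 335 ± 4.96 CPM in exposed pools, a log2 fold change of -0.52 (SE 0.15, 95% interval -0.88 to -0.16, edgeR adjusted p = 0.141). Without control pool 1, the lowest of the control pools, it was called lower (-0.60, adjusted p = 0.0892). This was the only 1 of the 13 alternatives in which *Jun* was called, with log2 fold changes from -0.79 to -0.42 over all of them.

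*Jund* (ENSMUSG00000071076, chromosome 8, 70698949 to 70700616, plus strand) had the widest spread of the Jun type. Its counts were 3247, 4148 and 931 in control and 99 and 348 in exposed pools. Control pool 3 stood apart from the other control pools, but all 3 were above both exposed pools. The mean was 59.6 ± 34.5 CPM in control and 5.32 ± 4.26 CPM in exposed pools, 11.2-fold higher in control. The log2 fold change of -3.49 (SE 0.87, 95% interval -5.59 to -1.39) missed the threshold with an adjusted p of 0.110 in edgeR's test. The gene was called lower in 4 of the 13 alternatives. These were the DESeq2 fit and, in edgeR's test, no robust estimation (adjusted p = 0.0896), spike-in scaling (adjusted p = 0.0141) and leaving out control pool 3 (adjusted p = 0.0242). Without control pool 3 the log2 fold change was -3.87. It was -2.85 without exposed pool 1 (adjusted p = 0.424) and -4.71 without exposed pool 3 (adjusted p = 0.159), and in neither case was it called.

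The length-scaled level of *Jund* is understated. Of its 1668 exon bases, 877 (52.6%) are shared with *Gm11175*, a gene on the opposite strand, and reads on bases of several genes were not counted. *Gm11175* had 0 counts in all 5 libraries, and only 791 bases of *Jund* remained to be counted. *Junb* shares 173 of its exon bases with *Prdx2* and *Jun* 232 with *Junos*, both under 10% of their length.

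Among the Fos-type genes, only *Fosl2* was called higher by edgeR's test. Both exposed pools also lay above all control pools for *Fos*, *Fosb* and *Fosl1*. *Fosl2* passed the count threshold only through its exposed pools, and this filter favours genes that differ. *Fosl2* (ENSMUSG00000029135, chromosome 5, 32135801 to 32157842, plus strand) codes for Fra-2, a Fos protein without the strong activation domain of Fos. It had 31, 64 and 54 counts in control and 323 and 388 counts in exposed pools. Each exposed pool was several times above the highest control pool, although its level stayed among the lowest of the family by TPM. The mean went from 1.06 ± 0.306 CPM to 8.41 ± 1.24 CPM, 7.94-fold, with a log2 fold change of 2.99 (SE 0.55, 95% interval 1.68 to 4.29, edgeR adjusted p = 0.0415). The call was lost without control pool 2 (adjusted p = 0.120), exposed pool 1 (0.343) or exposed pool 3 (0.323), under spike-in scaling (0.151) and with looser count filters (0.136 with filterByExpr, 0.175 with every gene of at least 1 count), while the log2 fold change stayed between 2.71 and 3.16.

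*Fos* (ENSMUSG00000021250, chromosome 12, 85473890 to 85477273, plus strand) had 434, 453 and 342 TPM in control and 818 and 539.8 TPM in exposed pools. The exposed pools were the highest of the 5, though they differed from each other by more than the control pools did. Its mean was 281 ± 44.0 CPM in control and 525 ± 173 CPM in exposed pools, 1.87-fold, and the log2 fold change of 0.90 (SE 0.23, 95% interval 0.35 to 1.46) missed the threshold with an adjusted p of 0.110 in edgeR's test. *Fos* was already among the 2 highest AP-1 transcripts in mice that had only met DMSO.

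*Fosb* (ENSMUSG00000003545, chromosome 7, 19302696 to 19310051, minus strand) codes for FosB and, by splicing, for the shortened and long-lived ΔFosB, which these counts per gene do not separate. It had 561, 1665 and 1526 counts in control and 4049 and 2660 counts in exposed pools. Control pool 1 was far below the other control pools, and both exposed pools were above all 3. The mean was 26.5 ± 11.8 CPM in control and 79.0 ± 21.8 CPM in exposed pools, 2.98-fold, with a log2 fold change of 1.57 (SE 0.44, 95% interval 0.53 to 2.62) and an adjusted p of 0.128 in edgeR's test. Without control pool 1 the log2 fold change was 1.25 and the gene was called higher (adjusted p = 0.0848). This and the DESeq2 fit were the only 2 of the 13 alternatives in which *Fosb* was called, with log2 fold changes from 1.12 to 1.91 over all of them.

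*Fosl1* (ENSMUSG00000024912, chromosome 19, 5447547 to 5455946, plus strand) codes for Fra-1 and was nearly undetected at rest. Its counts were 0, 7 and 29 in control and 245 and 188 in exposed pools. Control pool 3 was the only control pool clearly above the limit of 3 counts, and it was well below both exposed pools. The mean of 0.256 ± 0.329 CPM in control and 5.11 ± 0.859 CPM in exposed pools gave a log2 fold change of 4.30 (SE 1.32, 95% interval 1.15 to 7.45, edgeR adjusted p = 0.159). Without control pool 3 it was called higher (6.10, adjusted p = 0.0621), and so it was under spike-in scaling (3.90, adjusted p = 0.00619). These were the only 2 of the 13 alternatives in which *Fosl1* was called. The DESeq2 estimate was 0.20 with apeglm and 4.33 without it. The gene shares 1163 of its 2033 exon bases (57.2%) with *Ccdc85b* on the opposite strand, which was counted at 1435 to 2242 in each library, so its level too is understated.

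*Atf3* (ENSMUSG00000026628, chromosome 1, 191170296 to 191218039, minus strand) codes for a stress-induced bZIP protein that often represses. It had 1046, 1259 and 2322 counts in control and 2585 and 605 counts in exposed pools. The exposed pools were the highest and the lowest of the 5, so the groups overlapped. The mean was 33.3 ± 14.7 CPM in control and 37.4 ± 32.4 CPM in exposed pools, with a log2 fold change of 0.17 (95% interval -1.38 to 1.72, edgeR adjusted p = 0.920). An increase or a decrease by 1 log2 unit is within that interval, and the estimate was -1.21 without exposed pool 1 and 0.83 without exposed pool 3.

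*Batf* (ENSMUSG00000034266, chromosome 12, 85686669 to 85709087, plus strand), best known from immune cells, had 0 counts in each of the 3 control pools, against 35 and 92 counts after exposure. It was thus detected in both exposed pools and in no control pool. Against 3 counts in each control library (0.0649 CPM on average), its exposed mean of 1.51 ± 0.980 CPM was at least 23.3-fold higher, and a two-sided exact permutation test over the 5 pools gave p = 0.1, the smallest value that 3 against 2 pools allow. *Batf* lies 209.395 kb beyond *Fos* on chromosome 12, and *Jdp2*, which codes for a bZIP repressor of AP-1, lies between them. *Jdp2* was singled out after its values were seen: it had 1429, 1235 and 982 counts in control and 515 and 208 counts in exposed pools, a log2 fold change of -1.63 that did not pass edgeR's test (adjusted p = 0.141).

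**Figure D2:**
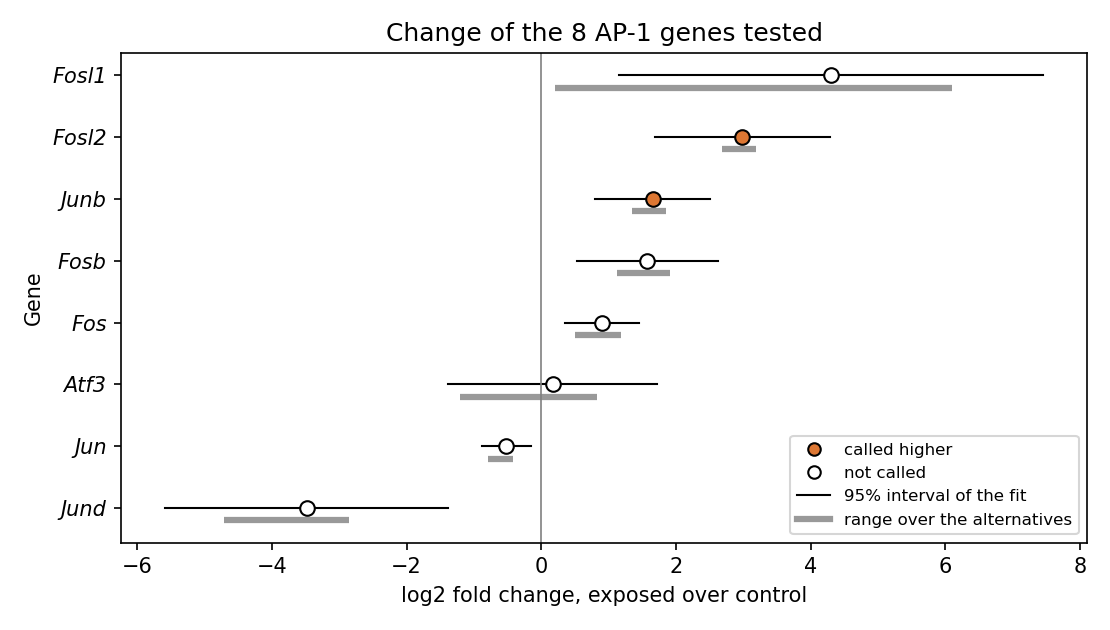
Log2 fold change, exposed over control, of the 8 AP-1 genes tested, with the 95% interval of the fit as a thin line, the range over the alternative analyses as a grey bar and filled points for the genes called. The interval of *Atf3* spans 0, those of *Jun* (-0.88 to -0.16) and *Jund* (-5.59 to -1.39) lie below it, and those of the other 5 genes lie above it.

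Markers of other cells were measured beside these values. The 12 myeloid markers summed to 153, 28.8 and 16.7 CPM in control and 169 and 102 CPM in exposed pools. None of the 12 was at 0 in all libraries, 5 could be tested, and 4 of these passed the count threshold only through the exposed pools. Of the 5, 1 was called higher, *Fcer1g* (log2 fold change 2.63, edgeR adjusted p = 0.0798), where 3.43% of all genes tested were. In 4 of the 5 both exposed pools lay above every control pool, as they did for *Fos*, *Fosb*, *Fosl1*, *Fosl2*, *Junb* and *Batf*. Of all genes tested, 20.3% were separated in this direction. The 4 were the same that passed the count threshold only through the exposed pools, which favours such a separation. Beside *Fcer1g* these were, named after their values were seen, *Ptprc* (0, 54 and 1 counts against 542 and 517), *Cd14* (103, 312 and 0 counts against 804 and 1388) and *Tyrobp* (538, 123 and 67 counts against 1026 and 797). *Lyz2*, the most abundant of the 12, had 2728, 530 and 534 counts in control and 2471 and 423 counts after exposure, so that its groups overlapped. Among the markers not tested, mean CPM was lower in exposed than in control pools for *C1qb* (1.06 against 5.13), *C1qc* (0.851 against 5.40) and *Aif1* (0.864 against 1.56). It was higher for *Csf1r*, *Cd68*, *C1qa* and *Itgam*. The part of such cells in the AP-1 values was not tested.

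Other marker lists were summed in the same way. The 7 sustentacular cell markers, *Cbr2* at the highest level, summed to 135 to 278 CPM in control and 148 to 373 CPM in exposed pools. Horizontal basal cell markers summed to at most 2.44 CPM, microvillar cell markers to at most 29.5 CPM and ensheathing glia markers to at most 17.7 CPM in any library. Blood and vessel markers, mainly the globin gene *Hbb-bs*, summed to 350.2, 110 and 19.7 CPM in control and 22.0 and 11.8 CPM in exposed pools. The 9 markers of immature neurons and progenitors had sums of 657, 513 and 588 CPM against 858 and 661 CPM. Of these markers 3 were tested and 1, *Gap43*, was called higher (0.94, edgeR adjusted p = 0.0884), where 3.43% of all genes tested were.

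Heat shock genes, which respond to cell stress, were examined because AP-1 genes can also respond to dissociation. The 10 genes summed to 454, 488 and 445 CPM in control and 710 and 656 CPM in exposed pools. Both exposed sums were higher. *Hsph1*, with 2097, 5800 and 3058 counts against 9077 and 9633 counts, was the 1 gene of 9 tested that was called (log2 fold change 1.52, edgeR adjusted p = 0.0949). Of all genes tested, 3.43% were called higher. *Hsp90aa1*, the most abundant, had a log2 fold change of 0.52 (adjusted p = 0.165). Both exposed pools lay above all control pools in 3 of the 9, and in 20.3% of all genes tested. The groups overlapped for the rest, among them *Hspa1a*, *Hspa1b*, *Dnajb1* and *Bag3*. The part of cell stress in the AP-1 values was not tested.

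The make-up of the family differed between the groups. Jun-type genes held 59.2%, 62.6% and 61.1% of the summed TPM of the 9 members in control pools and 40.9% and 49.9% in exposed pools. On average they held 61.0% ± 1.72 of it at rest (SD, n = 3) and 45.4% ± 6.32 after exposure (SD, n = 2), a difference of -15.6 percentage points (exact permutation test, two-sided p = 0.1, the smallest possible). Fos-type genes went the other way, from 37.7%, 34.3% and 31.8% to 53.8% and 48.0%. The groups did not overlap for either share. The summed TPM of the family did overlap, at 1168.5, 1382.3 and 1140.0 TPM in control and 1622.1 and 1212.6 TPM in exposed pools (exact permutation p = 0.5). The plot of the shares in each pool shows the members behind these sums.

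**Figure D3:**
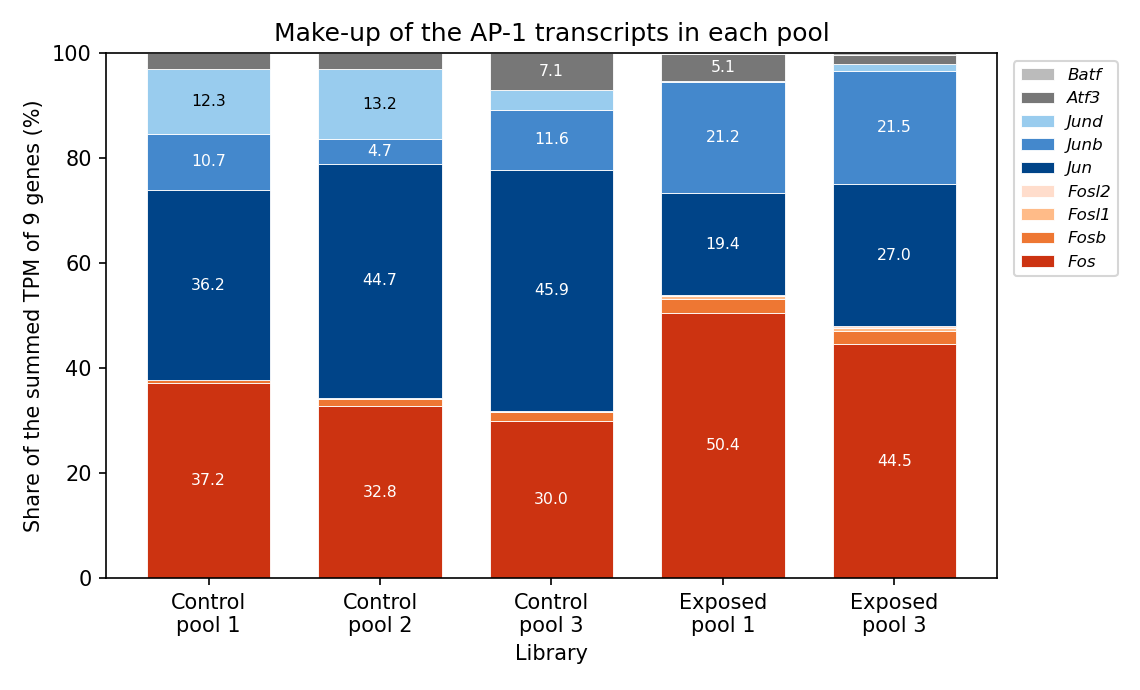
Share of each AP-1 gene in the summed TPM of the 9 genes (vertical axis, percent) in each pool, with Fos-type genes in red and orange, Jun-type genes in blue and *Atf3* and *Batf* in grey. *Fos* takes 30.0 to 37.2% in control and 44.5 and 50.4% in exposed pools, *Jun* 36.2 to 45.9% against 19.4 and 27.0%, and *Junb* 4.72 to 11.6% against 21.2 and 21.5%.

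The ratio of *Fos* to *Jun* TPM was 1.03, 0.734 and 0.654 in control and 2.59 and 1.65 in exposed pools. *Fos* was thus level with or below *Jun* at rest and above it in both exposed pools (exact permutation p = 0.1). Within the Jun type, *Junb* held 18.0%, 7.54% and 18.9% of the TPM in control and 51.9% and 43.2% in exposed pools (exact permutation p = 0.1). *Jund* held 20.8%, 21.1% and 6.01% in control and 0.620% and 2.61% in exposed pools, where the pools did not overlap but another split of the 5 gave as large a difference (exact permutation p = 0.2). *Junb* was below *Jund* in control pools 1 and 2, above it in control pool 3, and above it in both exposed pools, with TPM ratios of 0.864, 0.357 and 3.15 against 83.7 and 16.6. Within the Fos type the make-up was more even between groups, since *Fos* held 98.4%, 95.7% and 94.5% in control and 93.6% and 92.8% in exposed pools.

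The share of the Jun type was also computed with only those exon bases that no other gene shares, an alternative added after the shared bases of *Jund* and *Fosl1* had been seen. It was 65.9% ± 2.24 in control and 47.3% ± 6.61 in exposed pools, a difference of -18.6 percentage points. The share of *Jund* alone became 17.6% at rest and 1.55% after exposure, compared with 9.75% and 0.776% with full lengths. The *Jund* share at rest thus depends on the length used, while the Jun-type difference moved by less than the SD of the exposed pools (6.32 points) but by more than that of the control pools (1.72 points).

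Promoter sequences were searched for AP-1 and related sites, since several AP-1 genes are known targets of Creb, Srf or AP-1 itself. RefSeq windows of GRCm38.p6, from 250 bases before to 50 after a transcript's start, were matched to 8 of the 9 members (not *Fosl1*). The searched letters were TGANTCA for the AP-1 site, TGACGTCA for the full cyclic AMP response element, its first part TGACGT, which every full site contains, and the variant known from the *Jun* promoter, TGACATCA. The CArG box of Srf was searched as well, and all of them on both strands. The 4 windows with a match are shown over 26 bases, with the match in capitals.
Fos (chr12:85473814-85473839, plus strand): ttccgcccagTGACGTaggaagtcca
Jun (chr4:95052251-95052276, minus strand): gcctcggggTGACATCAtgggctatt
Atf3 (chr1:191183326-191183351, minus strand): taatagcattACGTCAgcctgggatt
Batf (chr12:85686612-85686637, plus strand): tctaacttgtTGACGTttccgcccat
The match begins 66 bases before the start of *Fos*, 45 before *Jun*, 8 before *Atf3* (on the other strand) and 98 before *Batf*. These are starts of RefSeq transcripts: for *Fos* and *Jun* they coincide with the gene starts given above, those of *Atf3*, *Batf*, *Fosb* and *Fosl2* lie inside the genes as the files give them, and the window of *Jund* lies upstream of the gene. TGACGT was found in 7.51% of all 32851 windows, TGACATCA in 3.62%, TGANTCA in 7.81%, TGACGTCA in 1.79% and the CArG box in 1.63%. The windows of *Fosb*, *Fosl2*, *Junb* and *Jund* held none of these letters. The 2 members called, *Fosl2* and *Junb*, are thus among the members whose windows had no match, and a match is a description of the letters only.

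Related bZIP genes, which code for possible partners or competitors of AP-1 proteins, were measured as a group of 18. Of these, 10 were tested and 3 were called higher, compared with 3.43% of all genes tested. *Atf2*, whose protein pairs with Jun, had 4389, 5218 and 3535 counts in control and 11818 and 7731 counts in exposed pools, a log2 fold change of 1.29 (SE 0.23, edgeR adjusted p = 0.0398). *Mafk*, coding for a small Maf protein, went from 623, 1490 and 1270 to 2874 and 2714 counts (1.46, adjusted p = 0.0899). *Atf4*, a regulator of the stress response, went from 10187, 10224 and 10584 to 15889 and 12921 counts (0.61, adjusted p = 0.0954). For each of these 3, named because they were called, the exposed pools lay above all control pools. Of the 10 tested, 4 were separated in this direction and 2 in the other, where 20.3% and 19.6% of all genes tested were. The log2 fold change was positive for 5 of the 10 and negative for 5. *Nfe2l2*, the most abundant of the group, had a log2 fold change of -0.23 (adjusted p = 0.418), and the median of the 10 was 0.09.

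Genes that act upstream of AP-1 (MAP kinases and their activators, ribosomal S6 kinases, Srf and its cofactors, Creb1 and proteins that control Jun turnover) were measured as a group of 27. Of the 25 tested, 1 was called higher, a share near the 3.43% of all genes tested, and the median log2 fold change was 0.05. This was *Mapk11*, coding for a p38 kinase. It had 1350, 1255 and 1431 counts in control and 2374 and 2793 counts in exposed pools (log2 fold change 1.07, SE 0.24, edgeR adjusted p = 0.0780). *Mapk10*, a Jun kinase of neurons and the most abundant of the group, had 17387, 19650 and 17809 counts in control and 19433 and 20085 counts in exposed pools. This was a log2 fold change of 0.24 (edgeR adjusted p = 0.333).

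Of 20 genes described elsewhere as AP-1 targets, most of them in other tissues, 5 had 0 counts in all libraries and 6 were tested. *Cdkn1a*, coding for the cell cycle inhibitor p21 and the most abundant of the group, had 8626, 5947 and 8661 counts in control and 45789 and 36038 counts in exposed pools. It was called higher (log2 fold change 2.52, SE 0.24, edgeR adjusted p = 0.00461). *Mustn1*, a small gene of muscle whose promoter is reported to be bound by AP-1, had 0, 26 and 0 counts against 3974 and 2891 counts and was called higher too (log2 fold change 8.78, adjusted p = 0.0335), with a fold that rests on few control counts. *Cdkn1a* and *Mustn1* were 2 of 6, beside 3.43% of all genes tested, and the median of the 6 was 0.96. *Mustn1* was listed because the paper names it as regulated by c-Fos and JunD. Its rise in these data was already known, so its call was not an independent result. The 6 include 2 genes that passed the count threshold only through the exposed pools, *Mustn1* and *Cd44*, and this filter favours genes that differ. *Cd44* was not called and overlapped between the groups (471, 102 and 665 counts against 446 and 1059), while *Cdkn1a* passed in both groups. The count called and the median are thus not support for a change of the list. No match to the letters above was found in the windows of *Cdkn1a* and *Mustn1*.

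**Figure D4:**
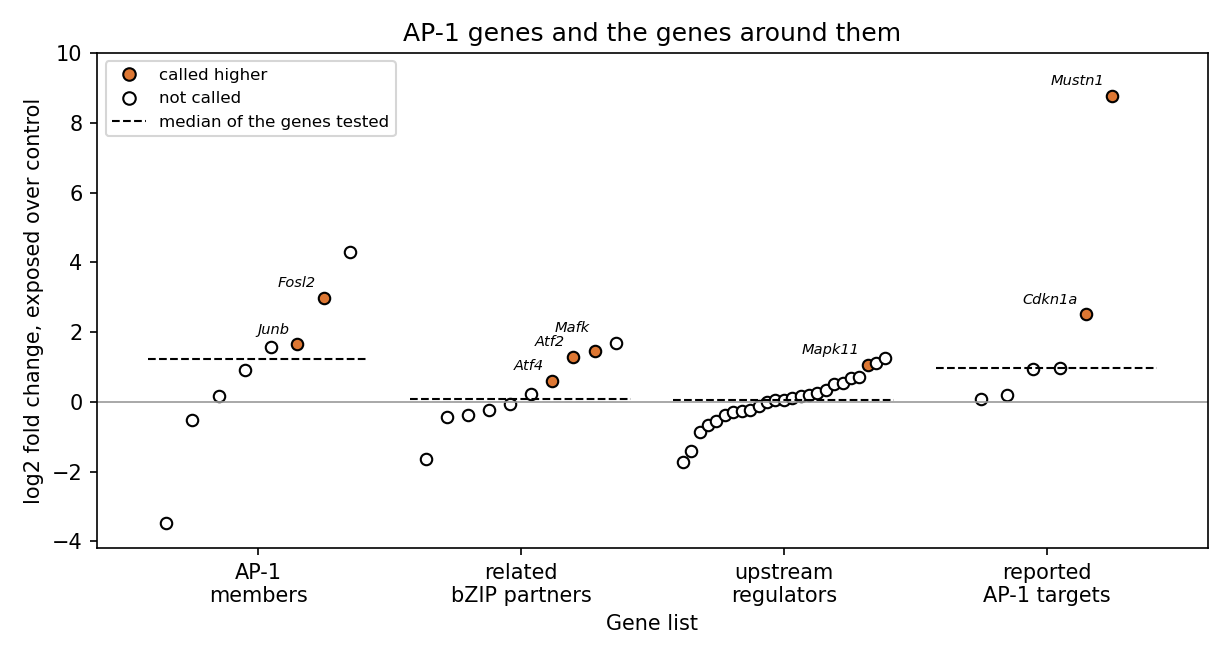
Log2 fold change, exposed over control, of each tested gene in 4 groups: AP-1 members, related bZIP partners, upstream regulators and reported AP-1 targets, with filled points for genes called higher and dashed lines at the median of the tested genes. The medians are 1.24, 0.09, 0.05 and 0.96, and the medians of the AP-1 members and of the targets leave out members with too few counts to be tested.

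The genes whose profile over the 5 pools was most like that of the called members were listed, by the root mean square difference of log2 CPM after centring each gene. For *Fosl2* they were *Tent5a* (0.0489), *Slc1a1* (0.122) and *Srxn1* (0.130). *Srxn1*, coding for the antioxidant enzyme sulfiredoxin, had 3776, 6080 and 5491 counts in control and 35194 and 35723 counts in exposed pools. For *Junb* they were *Hook2* (0.112), *Fam219a* (0.141) and *Chic1* (0.183). *Hook2*, coding for a protein that links cargo to microtubules, had 591, 296 and 492 counts in control and 1631 and 1168 counts in exposed pools, with the lowest value in control pool 2 as for *Junb*.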

How the data were processed

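Sorted GFP-positive neurons were lysed, their RNA was amplified with the SMARTer kit, and Nextera XT libraries were read as single reads of 50 bases. Per the labels and methods, the authors mapped the reads with STAR 2.7.0a on GRCm38 and counted them with featureCounts 1.6.3 on Ensembl 99 exons with updated OR models, the reporter and ERCC spike-in RNAs. Raw counts were deposited, without normalization. Strand was not used, and reads that map to several places or to exons of several genes were not counted by the authors. Of 55411 genes, 55144 were named through GENCODE M21. The 92 spike-in rows were left out of library sizes and tests.

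A gene was tested if each library of 1 condition reached 143 counts, the local minimum in the density of log2(count + 1). Counts were analysed with edgeR 4.0.16 in R 4.3.3 (TMM, glmQLFit with robust estimation, glmQLFTest, condition as the only factor, Benjamini-Hochberg over all 10024 genes tested). TPM used the exon lengths in the files. Shares were compared by two-sided exact permutation of the pools in Python 3.11.15. The script was tested on simulated data. Alternatives were DESeq2 1.42.0 with apeglm 1.24.0 (the authors used DESeq2 1.30.1), other scalings, thresholds and filters, the pool number as a block and leaving out each library.

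The members and lists were chosen with earlier results of these data known. Named were all members, the called genes of each list (at most 5), the tested gene with the highest TPM of each list, and the 3 nearest profiles (log2 CPM with a pseudocount of 2) of each called member. Exposed pool 2 and the other experiments of the study were not analysed here. Fold changes against libraries with at most 3 counts (0.0607 to 0.0704 CPM) are lower bounds.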

Additional observations from a re-analysis of the deposited data

How the results depend on the processing

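At this depth *Batf* could not be tested and *Fosl1* at rest was near the limit of 3 counts. The AP-1 calls changed with most settings, while the direction of every tested member except *Atf3* was kept in all 13 alternatives. The 530 genes called became 1388 with DESeq2 (48.5% of them higher, compared with 64.9%), 140 under spike-in scaling, 281 at an adjusted p under 0.05, 240 with filterByExpr, and 112 to 793 without one library (44.6% higher without control pool 3, 83.0% without exposed pool 1). The 2 AP-1 members called became 5 with DESeq2, 1 (*Fosl2*) at an adjusted p under 0.05, 1 (*Junb*) with every gene of at least 1 count, 0 with filterByExpr (8 at an unadjusted p under 0.05), and 0 to 4 without one library (0 without either exposed pool, 4 at an unadjusted p under 0.05 each, and 4 without control pool 3). Under spike-in scaling 2 were called, but these were *Fosl1* and *Jund*. Without robust estimation 3 were called, *Fosl2* and *Junb* higher and *Jund* lower. The 3 related bZIP genes called became 5 with DESeq2, 1 at an adjusted p under 0.05, 0 under spike-in scaling and with filterByExpr (1 and 6 at an unadjusted p under 0.05), and 0 to 2 without one library. The upstream gene called became 4 genes with DESeq2, 0 under spike-in scaling, at an adjusted p under 0.05, with filterByExpr and with every gene of at least 1 count (1, 5, 4 and 4 at an unadjusted p under 0.05), and 0 to 1 without one library. The 2 target genes called became 1 (*Cdkn1a*) with DESeq2 and with every gene of at least 1 count, and 1 to 3 without one library. The causes were not tested. The log2 fold change of *Atf3*, 0.17, became -0.34 under spike-in scaling, -0.01 without control pool 1 and -1.21 without exposed pool 1, within a range of -1.21 to 0.83 without one library. The Jun-type difference of -15.6 points was -17.0 by counts, -16.8 without *Atf3* and *Batf*, and -20.1 to -11.1 without one library.

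A block for the pool number left 11 genes called, all higher, and 0 AP-1 members (5 at an unadjusted p under 0.05, with adjusted p = 0.260 for *Fosl2* and 0.163 for *Junb*), 0 related bZIP genes (4), 0 upstream genes (1) and 1 target (*Cdkn1a*), with *Atf3* at -0.23. The labels give 4 mice per condition and day, the size of a pool, but do not say which number belongs to which day. The deviations of same-numbered pools from their group means correlated at 0.03 (pools 1) and -0.07 (pools 3), a weak check, since the deviations of 2 exposed pools mirror each other. Whether the numbers pair the pools is thus not known.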

Other observations

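*Hook2*, the gene with the profile most like that of *Junb*, lies 11.884 kb from it on chromosome 8. The genes around each member were therefore looked at after this had been seen, as a description. Around each member other than *Junb* and *Jund*, 1 to 10 genes were tested within 100 kb, and 0 were called. Of all genes tested, 3.43% were called higher and 1.86% lower. Within 100 kb of *Junb*, 12 genes were tested, of which *Hook2* was called higher (log2 fold change 1.71, edgeR adjusted p = 0.0949) and *Gcdh*, 80.562 kb away, was called lower (-1.81, adjusted p = 0.0830). *Prdx2*, whose exons overlap those of *Junb*, had a log2 fold change of 0.03 (adjusted p = 0.948), and *Rnaseh2a*, 4.716 kb away, one of -0.62 (adjusted p = 0.340). These 2, the tested genes closest to *Junb*, were not called. Within 100 kb of *Jund*, 9 genes were tested and *Ssbp4* was called lower, with 4016, 3746 and 3240 counts in control and 1201 and 1537 counts in exposed pools (-1.29, adjusted p = 0.0495). Control pool 3, which was low for *Jund*, was not low to the same extent for *Ssbp4*.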
